A study of Mus musculus with 14 samples.

Results

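The genes of 9 digestive enzymes of the intestinal brush border were followed in 14 RNA sequencing libraries of mouse small intestine. They were picked by name, for the function of their products, with earlier results of these data known. They are 9 of the 36401 genes listed in the files: the disaccharidase genes Lct, Sis and Treh and the peptidase genes Anpep, Mme, Dpp4, Enpep, Naaladl1 and Ace. All 9 passed the filter on low counts, which kept 14750 genes.

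The brush border is the carpet of microvilli on the face of an enterocyte that meets the gut contents. Its membrane carries hydrolases that finish digestion: disaccharidases split sugars to monosaccharides, and peptidases trim peptides to amino acids and short peptides for uptake beside them. The enzymes are made as cells leave the crypt and mature on the villus, and lactase and sucrase-isomaltase are known to be more active in jejunum than in the far ileum.

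Tissue came from C57Bl6 mice of 6-12 weeks, all labelled male. The ileum samples were cut 5-8 cm from the cecum and the jejunum samples at the same distance from the pylorus. In each region cells sorted as CD44+/CD24lo/CD166+ (called CD166 here) gave 2 libraries, cells sorted for LGR5 gave 2, and crypt cells, given as crypt stem cells, gave 3. No group carries a treatment or a stated mutation, and the labels do not say how LGR5 was made visible for sorting. They also do not say whether replicates are separate mice. By the Xist and Y-linked counts below, ileum crypt 1 and jejunum crypt 2 came from other mice than the rest of their groups. For the other libraries this is not known. The p-values measure only the spread between these libraries, which may be technical in part. Levels are given as CPM, a gene's count relative to the size of its library, with libraries scaled by the trimmed mean of M values (TMM).

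The libraries held 6295828 to 20380369 expected counts each. The library labelled ileum crypt 3 nearly matched jejunum crypt 1. Only 16.6% of genes differed between them beyond counting noise, against 37% in the next pair, jejunum LGR5 1 and 2. Its other distances did not place ileum crypt 3 in either region. It differed from ileum crypt 2 and 1 in 49.3% and 62.2% of genes, and from jejunum crypt 3 and 2 in 53.7% and 73.4%. Jejunum crypt 1 differed about equally from ileum crypt 2 (48.9%) and jejunum crypt 3 (49.3%), and by 73.3% from jejunum crypt 2. Whether either library is mislabelled was not tested. Fabp6, the ileal bile acid binding protein gene, had 2688, 1987 and 25.8 CPM in ileal crypt 1, 2 and 3, against 25.1, 1.26 and 1.15 CPM in jejunal crypt. Jejunum crypt 2 had the highest enterocyte and lymphocyte marker sums and the lowest stem cell marker sum, at 53325, 10953 and 1430 CPM. Although labelled male, ileum crypt 1 and jejunum crypt 2 held 0 and 1 counts over 4 Y-linked genes, with Xist at 1675 and 1310 CPM. The 8 sorted libraries held both Xist (201 to 1361 CPM) and Y-linked counts (222 to 1270), so each held RNA of both sexes. For the enzyme genes, values that ileum crypt 3 changed by over 1.5 times are given with and without it. These values are calls, fold changes, shares of the crypt level and per-kilobase levels. For all other named genes, calls and fold changes are given only with ileum crypt 3 included, and its effect on them is not shown. The likeness of profiles was also computed only with it included. The sorted cells had 1502 to 3397 CPM over 12 enterocyte markers and 9705 to 20475 CPM over 8 stem cell markers, against 8349 to 53325 and 1430 to 5623 CPM in crypt cells. All 12 and all 8 markers had counts in every library. Lgr5 itself had 84.5 to 227 CPM in CD166 cells and 123 to 339 CPM in LGR5 cells, against 12.4 to 80.2 CPM in crypt cells.

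**Figure D1:**
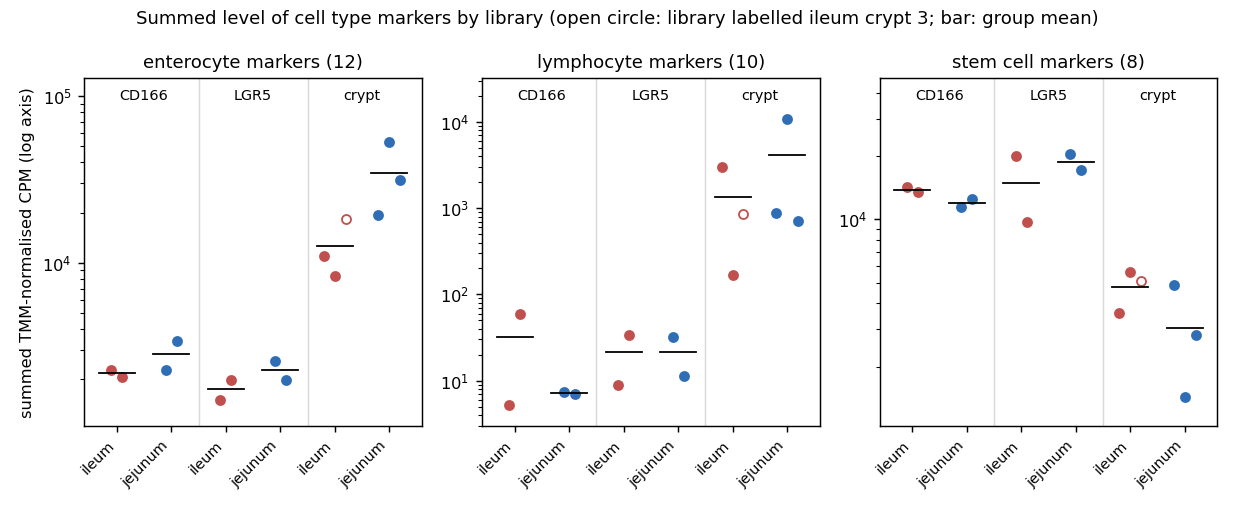
Summed TMM-normalised CPM (log axis) of enterocyte, lymphocyte and stem cell marker genes in each library, by population and region, with points for libraries and bars for group means. Sorted libraries sit below all crypt libraries for enterocyte and lymphocyte markers and above them for stem cell markers, and jejunum crypt 2 is the highest for enterocyte markers at 53325 CPM.

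The enzymes divided by region. Over all populations, 5 of the 9 genes were lower in the ileum (Lct, Sis, Treh, Anpep and Mme), 1 was higher (Naaladl1), and Dpp4, Enpep and Ace did not pass the test. The test was edgeR's quasi-likelihood F test on the mean of the 3 within-population differences, with Benjamini-Hochberg adjustment over all genes. A call means that this adjusted p was below 0.05. Among all genes tested 5.01% were called, 2.99% higher and 2.02% lower in the ileum. The median log2 difference was -1.10 over the 9 enzymes and -0.01 over all genes. Without ileum crypt 3 the same test called 7 of the 9, Ace being the addition, against 8.61% of all genes.

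Lct encodes lactase-phlorizin hydrolase, which splits the milk sugar lactose (ENSMUSG00000026354, chromosome 1:128284756-128328318, minus strand; this and the positions that follow are from GENCODE on GRCm38). In CD166 cells Lct stood at 3.91 and 4.02 CPM in the ileum, against 18.8 and 53.0 CPM in the jejunum. In LGR5 cells Lct stood at 2.41 and 1.72 CPM in the ileum, against 53.5 and 20.6 CPM in the jejunum. In crypt cells Lct stood at 112, 40.0 and 1237 CPM in the ileum, against 1111, 877 and 1195 CPM in the jejunum. The ileal values lay below every jejunal value of their population except in ileum crypt 3, which had the highest Lct of all 14 libraries. Lct was 7.17-fold lower in the ileum over all populations (log2 -2.84 ± 0.70 SE, edgeR adjusted p = 0.0405), and 13.1-fold lower without ileum crypt 3 (log2 -3.71 ± 0.38, adjusted p = 0.000293).

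Sis encodes sucrase-isomaltase, which splits sucrose and the branch points of starch fragments (ENSMUSG00000027790, chromosome 3:72888557-72967863, minus strand). In CD166 cells Sis stood at 103 and 114 CPM in the ileum, against 303 and 379 CPM in the jejunum. In LGR5 cells Sis stood at 57.6 and 65.9 CPM in the ileum, against 141 and 113 CPM in the jejunum. In crypt cells Sis stood at 1174, 1049 and 2544 CPM in the ileum, against 2340, 3322 and 2553 CPM in the jejunum. Again the regions overlapped in crypt cells alone, through ileum crypt 3. Sis was 2.23-fold lower in the ileum (log2 -1.16 ± 0.21, edgeR adjusted p = 0.0135).

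Treh encodes trehalase, which splits trehalose, the sugar of fungi and insects (ENSMUSG00000032098, chromosome 9:44673233-44686305, plus strand). Its exons overlap those of Phldb1 on the other strand, and as no strand setting of the counting is given, reads of the pair cannot be told apart there. In CD166 cells Treh stood at 2.82 and 2.63 CPM in the ileum, against 7.57 and 16.4 CPM in the jejunum. In LGR5 cells Treh stood at 1.75 and 0.861 CPM in the ileum, against 16.9 and 8.96 CPM in the jejunum. In crypt cells Treh stood at 38.4, 31.6 and 199 CPM in the ileum, against 198, 360 and 395 CPM in the jejunum. Ileum crypt 3 and jejunum crypt 1 were level, at 198.6 and 198.5 CPM, and all other ileal libraries were lower than the jejunal ones of their population. Treh was 5.29-fold lower in the ileum (log2 -2.40 ± 0.48, edgeR adjusted p = 0.0184).

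**Figure D2:**
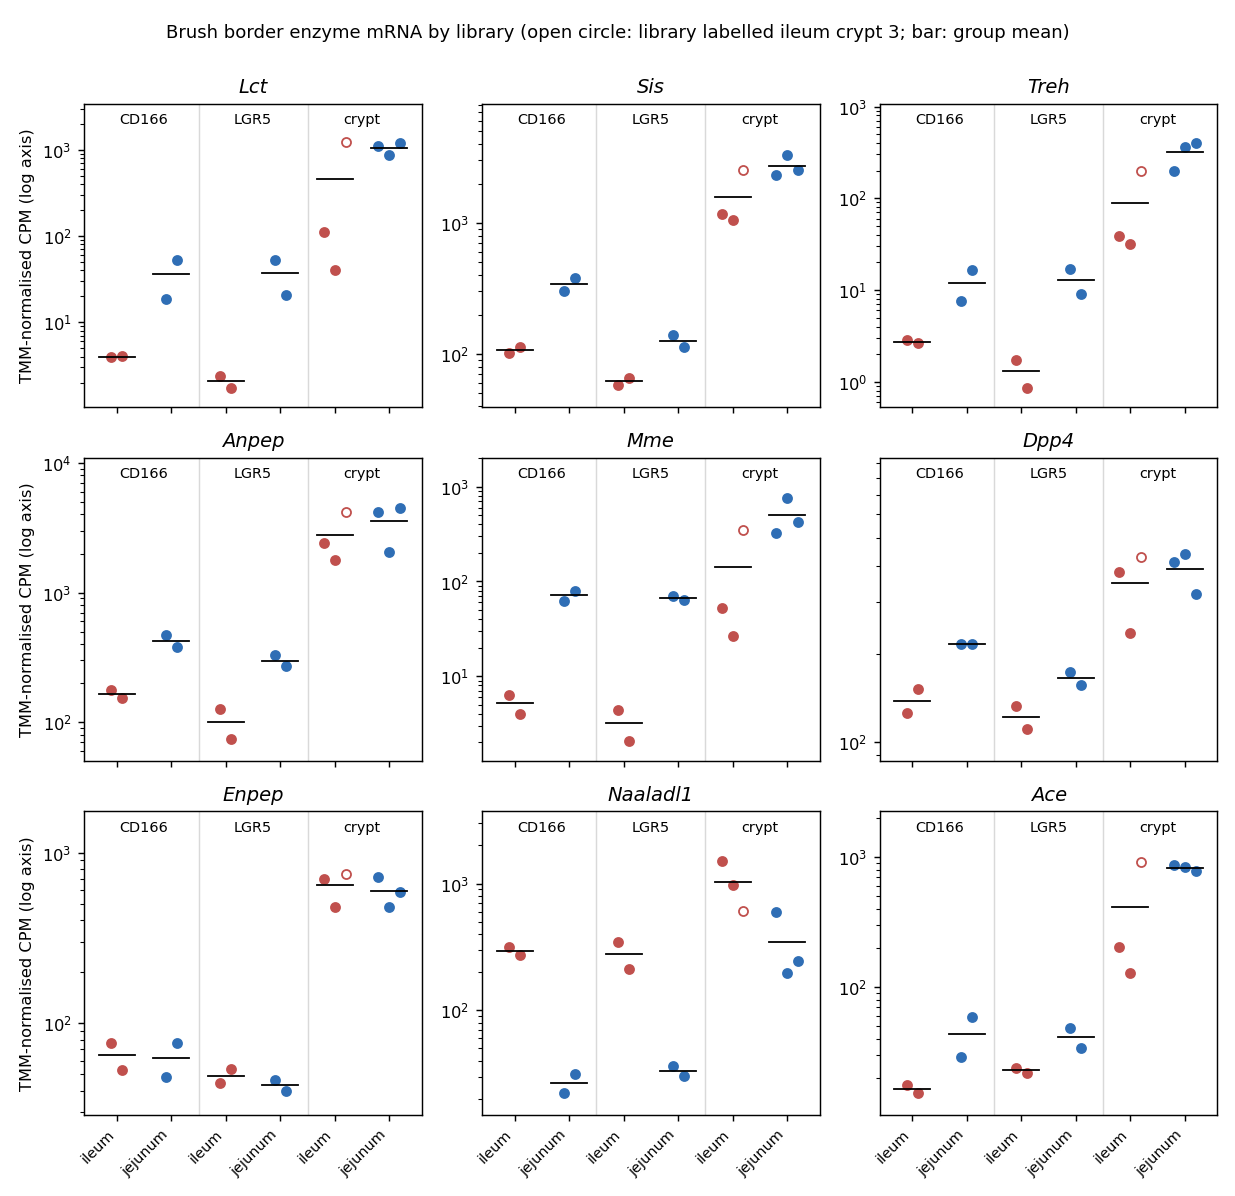
TMM-normalised CPM (log axis) of each enzyme gene in each of the 14 libraries, by population (CD166, LGR5, crypt) and region, with points for libraries, an open circle for ileum crypt 3 and bars for group means. Lct runs from 1.72 CPM in ileal LGR5 cells to 1237 CPM in ileum crypt 3, Naaladl1 is the 1 gene whose ileal libraries all lie above the jejunal ones in every population, and Enpep overlaps between the regions in all 3.

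Anpep encodes aminopeptidase N, which removes neutral amino acids from the start of peptides (ENSMUSG00000039062, chromosome 7:79821803-79861059, minus strand). In CD166 cells Anpep stood at 178 and 154 CPM in the ileum, against 468 and 382 CPM in the jejunum. In LGR5 cells Anpep stood at 127 and 73.8 CPM in the ileum, against 328 and 269 CPM in the jejunum. In crypt cells Anpep stood at 2395, 1767 and 4172 CPM in the ileum, against 4146, 2062 and 4478 CPM in the jejunum. The regions were apart in both sorted populations and overlapped in crypt cells, where jejunum crypt 2 lay below ileum crypt 1. Anpep was 2.14-fold lower in the ileum (log2 -1.10 ± 0.25, edgeR adjusted p = 0.0300).

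Mme encodes neprilysin, an endopeptidase that cuts small peptides at hydrophobic residues (ENSMUSG00000027820, chromosome 3:63241537-63386030, plus strand). In CD166 cells Mme stood at 6.28 and 4.02 CPM in the ileum, against 62.7 and 80.1 CPM in the jejunum. In LGR5 cells Mme stood at 4.44 and 2.04 CPM in the ileum, against 71.1 and 63.2 CPM in the jejunum. In crypt cells Mme stood at 52.9, 26.5 and 352 CPM in the ileum, against 322, 757 and 421 CPM in the jejunum. In sorted cells the lowest jejunal library was at least 9 times the highest ileal one, and in crypt cells ileum crypt 3 lay inside the jejunal range. Mme was 9.99-fold lower in the ileum over all populations (log2 -3.32 ± 0.56, edgeR adjusted p = 0.0105), and 15.3-fold lower without ileum crypt 3 (log2 -3.94 ± 0.30, adjusted p = 5.17e-05).

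Ace encodes angiotensin-converting enzyme, which clips dipeptides from the end of peptides (ENSMUSG00000020681, chromosome 11:105967945-105989964, plus strand), and its exons overlap the antisense gene Gm11651, so reads of the pair cannot be told apart. In CD166 cells Ace stood at 17.6 and 15.3 CPM in the ileum, against 28.8 and 59.0 CPM in the jejunum. In LGR5 cells Ace stood at 24.1 and 22 CPM in the ileum, against 48.2 and 34.1 CPM in the jejunum. In crypt cells Ace stood at 202, 128 and 912 CPM in the ileum, against 868, 831 and 782 CPM in the jejunum. Ileum crypt 3 had more Ace than any other library, while ileum crypt 1 and 2 lay far below all jejunal crypt libraries. The log2 difference of Ace over all populations was -1.08 ± 0.39 (edgeR adjusted p = 0.158). Without ileum crypt 3 Ace was 2.88-fold lower in the ileum (log2 -1.53 ± 0.19, adjusted p = 0.000939), so that library decided its call.

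Dpp4 encodes dipeptidyl peptidase 4, which removes dipeptides that end in proline or alanine and inactivates incretin hormones (ENSMUSG00000035000, chromosome 2:62330073-62412231, minus strand; its exons overlap the antisense gene Gm13561). In CD166 cells Dpp4 stood at 125 and 151 CPM in the ileum, against 215 and 216 CPM in the jejunum. In LGR5 cells Dpp4 stood at 133 and 110 CPM in the ileum, against 174 and 157 CPM in the jejunum. In crypt cells Dpp4 stood at 382, 235 and 429 CPM in the ileum, against 414, 439 and 321 CPM in the jejunum. The regions did not overlap in either sorted population, but the gaps were small, and the crypt ranges overlapped. The log2 difference of Dpp4 was -0.42 ± 0.15 over all populations (edgeR adjusted p = 0.152) and -0.47 ± 0.14 without ileum crypt 3 (adjusted p = 0.0737).

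Enpep encodes glutamyl aminopeptidase, which removes acidic residues and acts on angiotensin peptides (ENSMUSG00000028024, chromosome 3:129269175-129332720, minus strand). In CD166 cells Enpep stood at 76.3 and 53.0 CPM in the ileum, against 48.1 and 75.9 CPM in the jejunum. In LGR5 cells Enpep stood at 44.6 and 53.6 CPM in the ileum, against 46.1 and 40.1 CPM in the jejunum. In crypt cells Enpep stood at 697, 482 and 754 CPM in the ileum, against 724, 478 and 590 CPM in the jejunum. The regions overlapped in all 3 populations. The log2 difference of Enpep was 0.12 ± 0.17 over all populations (edgeR adjusted p = 0.838).

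Naaladl1 ran the other way. It encodes an aminopeptidase related to glutamate carboxypeptidase II that is known in rat as a brush border peptidase of the ileum (ENSMUSG00000054999, chromosome 19:6105782-6115792, plus strand). In CD166 cells Naaladl1 stood at 317 and 274 CPM in the ileum, against 22.1 and 31.6 CPM in the jejunum. In LGR5 cells Naaladl1 stood at 343 and 213 CPM in the ileum, against 36.5 and 30.3 CPM in the jejunum. In crypt cells Naaladl1 stood at 1503, 973 and 612 CPM in the ileum, against 592, 196 and 245 CPM in the jejunum. Every ileal library lay above every jejunal one of its population, with ileum crypt 3 and jejunum crypt 1 the nearest to each other. Naaladl1 was 6.49-fold higher in the ileum (log2 2.70 ± 0.30, edgeR adjusted p = 0.00262), and it was called in all 14 fits that each left out 1 library. Mme was called in 12 of those fits, losing its call without ileum LGR5 2 (adjusted p = 0.0528) or ileum CD166 2 (0.0514). Sis and Treh were called in 8 each, Anpep in 5 and Lct in 4. Lct and Treh also lost their calls under limma-voom (adjusted p = 0.109 and 0.0801), with no filter on low counts (0.134 and 0.0576) and without both libraries that held 0 or 1 Y-linked counts (0.104 and 0.0579).

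Within a single population fewer enzymes passed. In CD166 cells 0 of 9 were called, as were 0.0203% of all genes (0.0136% higher and 0.00678% lower; 938 genes had an unadjusted p under 0.05). Naaladl1 came nearest, 11-fold higher in the ileum (log2 3.46 ± 0.57, edgeR adjusted p = 0.0849). In LGR5 cells 1 of 9 was called, Naaladl1, 8.32-fold higher (log2 3.06 ± 0.57, adjusted p = 0.0444), against 0.698% of all genes (0.569% higher and 0.129% lower). In crypt cells 0 of 9 were called, and 0 of all genes, although 1899 genes had an unadjusted p under 0.05. DESeq2 called 3 of the 9 in CD166 cells, 5 in LGR5 cells and 1 in crypt cells, and limma-voom called 1 in CD166 cells and 0 in crypt cells. Without ileum crypt 3 edgeR called 3 in CD166 cells (Sis, Mme and Naaladl1; 0.760% of all genes), 4 in LGR5 cells (Lct, Treh, Mme and Naaladl1; 2.42%) and 6 in crypt cells (Lct, Sis, Treh, Mme, Naaladl1 and Ace; 4.17%).

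In each sorted population 7 of the 9 had both ileal libraries below both jejunal ones, Naaladl1 had them above, and Enpep overlapped. With 2 libraries a side such separation was common: 21.4% of all genes lay below and 17.7% above in CD166 cells, 28.9% and 27.5% in LGR5 cells. In crypt cells Naaladl1 was the 1 enzyme without overlap, above, as for 5.64% of all genes. Whether the regional difference changed with the population was tested directly, and 0 of 9 enzymes passed, against 0.0136% of all genes. Unadjusted, 1 enzyme had a p under 0.05: Naaladl1, with an edgeR p of 0.0363, or 0.873 adjusted. Its fitted log2 difference was 3.46 in CD166 cells, 3.06 in LGR5 cells and 1.58 in crypt cells. Enterocyte markers moved with the region in crypt cells, at 8349 to 18193 CPM in the ileum and 19321 to 53325 CPM in the jejunum. Of these 12 markers 1 was called higher and 6 lower in the ileum over all populations. In sorted cells their sum was 1502 to 2268 CPM in the ileum, against 1981 to 3397 CPM in the jejunum. Goblet cell markers (8 genes) summed to 8546 and 25016 CPM in ileal LGR5 cells, against 3553 and 2115 CPM in jejunal ones. In crypt cells they summed to 9331 to 14682 CPM in the ileum, against 7142 to 9305 CPM in the jejunum, and in CD166 cells the regions overlapped. Over all populations 3 of these 8 were called higher in the ileum (Clca3, Agr2 and Spdef), as were 3 of 7 Paneth cell markers (Mmp7, Pla2g2a and Defa22), with 0 lower. Of 9 enteroendocrine markers 2 were higher and 1 lower. The part of these markers in the results was not tested. In such mixed cell samples, fewer cells of a type and less RNA per cell cannot be told apart.

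**Figure D3:**
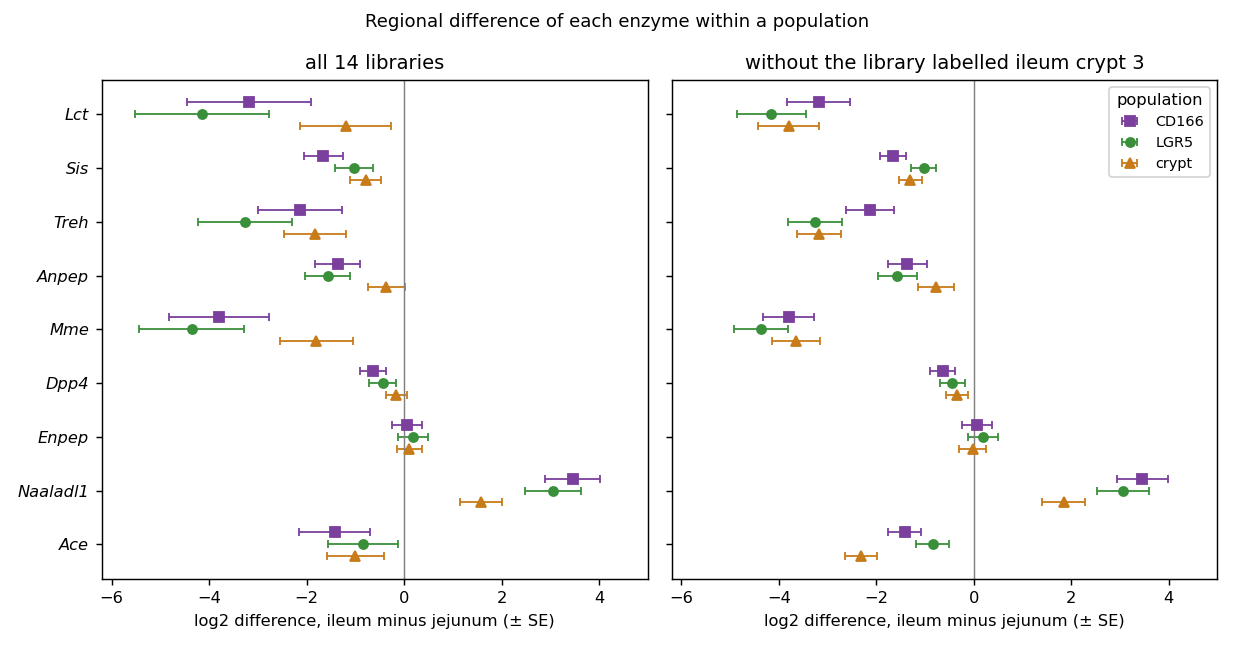
Log2 difference, ileum minus jejunum (± SE, edgeR), of each enzyme gene in CD166, LGR5 and crypt cells, with all 14 libraries at left and without ileum crypt 3 at right. In crypt cells Lct moves from -1.20 to -3.80 and Mme from -1.80 to -3.65 when that library is left out, while Naaladl1 stays above 0 in each population.

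The stretches around the transcription starts are shown because several of these genes parted by region, as did the transcription factor gene Gata4 (log2 -2.99). Pdx1 (-5.17) and Onecut2 (-5.08) parted more, and motifs of their factors were not searched. Whether any of these factors has a part in the regional differences was not tested. In cultured cells and mice, the promoters of Lct and Sis are known to bind GATA, HNF1 and CDX factors. RefSeq windows from 250 bases before to 50 after the start were at hand for 8 of the 9 genes, on GRCm38.p6, and none for Naaladl1. They are not on mm9, the build named for the counts. Capitals mark GATAA (GATA factors), GTTAAT (part of the HNF1 site) and TTTAT (CDX factors). Each was searched on both strands, so that its reverse complement is marked too. Windows of Lct (chr1:128328269-128328568, minus strand), Sis (chr3:72967814-72968113, minus), Treh (chr9:44672983-44673282, plus) and Enpep (chr3:129332700-129332999, minus) read:
Lct: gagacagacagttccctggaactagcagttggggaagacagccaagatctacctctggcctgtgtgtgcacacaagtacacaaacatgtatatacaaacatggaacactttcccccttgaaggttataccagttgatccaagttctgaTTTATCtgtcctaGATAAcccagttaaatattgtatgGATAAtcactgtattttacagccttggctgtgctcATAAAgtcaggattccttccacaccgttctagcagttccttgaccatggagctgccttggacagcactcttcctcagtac
Sis: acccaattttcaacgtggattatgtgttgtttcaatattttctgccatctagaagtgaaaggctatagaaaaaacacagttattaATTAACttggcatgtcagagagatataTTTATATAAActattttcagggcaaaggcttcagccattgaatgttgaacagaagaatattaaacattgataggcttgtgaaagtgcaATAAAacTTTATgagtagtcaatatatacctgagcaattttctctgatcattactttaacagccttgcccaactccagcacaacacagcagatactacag
Treh: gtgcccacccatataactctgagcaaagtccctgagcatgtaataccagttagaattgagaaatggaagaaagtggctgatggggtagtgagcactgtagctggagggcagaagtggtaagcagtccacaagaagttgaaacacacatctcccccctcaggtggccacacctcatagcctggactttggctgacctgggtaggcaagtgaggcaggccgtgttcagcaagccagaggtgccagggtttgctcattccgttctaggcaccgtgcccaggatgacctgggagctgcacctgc
Enpep: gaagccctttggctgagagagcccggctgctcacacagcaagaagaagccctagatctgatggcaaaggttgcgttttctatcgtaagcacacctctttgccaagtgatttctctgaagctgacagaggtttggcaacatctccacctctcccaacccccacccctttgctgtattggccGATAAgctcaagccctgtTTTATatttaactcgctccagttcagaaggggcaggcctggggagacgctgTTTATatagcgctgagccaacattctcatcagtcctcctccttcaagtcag
The Lct window held 3 GATAA matches, at bases -101, -89 and -65 from the start, and 2 TTTAT matches, 1 of them overlapping the GATAA match at -101. Sis held 1 GTTAAT match and 4 TTTAT matches, with no GATAA. Treh, which differed between the regions like Lct, held none of the 3 motifs. Enpep, whose regions overlapped and whose RefSeq start lies upstream of the GENCODE one, held 1 GATAA and 2 TTTAT matches. Windows of Anpep and Mme held none, that of Dpp4 held 1 GATAA and 1 TTTAT, and the first of 2 windows of Ace held 1 TTTAT. The Anpep window (chr7:79848161-79848460, minus strand) lies inside the GENCODE gene, whose outermost start is at 79861059. The 3 Mme windows lie from 63294961 on, inside a gene that starts at 63241537. Other starts of these 2 genes were not searched, and which start is used in these cells was not tested. Of all 32851 windows, 25.4% held GATAA, 7.10% GTTAAT and 40.0% TTTAT. A match is only a run of letters and does not show that a factor binds there.

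All 9 enzymes were lower in sorted cells than in crypt cells, though by widely different folds. In CD166 cells all 9 fell against crypt cells (edgeR, mean over both regions). Of all genes 30.1% were called and 16.5% fell, and the median log2 difference was -3.57 for the enzymes and 0.02 for all genes. In LGR5 cells all 9 fell too. There 31.5% of all genes were called and 18.5% fell, and the medians were -4.18 and -0.01. Without ileum crypt 3 all 9 were again called, with 25.3% of all genes called in CD166 cells and 26.6% in LGR5 cells, and all 9 were called in every other fit that left out 1 library. In each sorted population 6 of the 9 (Sis, Treh, Anpep, Dpp4, Enpep and Ace) lay below every crypt library of either region, as did 11% of all genes in CD166 cells and 12.4% in LGR5 cells. The CD166 and LGR5 comparisons share the crypt libraries.

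Lct and Treh fell most. Lct was 58.8-fold lower in CD166 cells (log2 -5.88 ± 0.98, edgeR adjusted p = 0.00153) and 80.1-fold lower in LGR5 cells (log2 -6.32 ± 1.01, adjusted p = 0.00120). Ileum crypt 3 set much of that size: without it the folds were 23.8 and 32.4. Treh was 29.5-fold lower in CD166 cells (log2 -4.88 ± 0.62, adjusted p = 0.000331) and 40.9-fold lower in LGR5 cells (log2 -5.35 ± 0.66, adjusted p = 0.000241), or 18.4-fold and 25.6-fold without that library. Sis was 10.9-fold lower in CD166 cells (log2 -3.44 ± 0.29, adjusted p = 3.62e-05) and 23.6-fold lower in LGR5 cells (log2 -4.56 ± 0.31, adjusted p = 8.47e-06). Lct in the jejunal sorted cells, at 18.8 to 53.5 CPM, overlapped the 40.0 CPM of ileum crypt 2.

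Among the peptidase genes the falls of Ace, Anpep, Mme and Enpep ran from 9.80-fold to 21.8-fold. Ace was 21.8-fold lower in CD166 cells (log2 -4.44 ± 0.56) and 19-fold lower in LGR5 cells (log2 -4.25 ± 0.55), or 13.7-fold and 12.0-fold without ileum crypt 3. Anpep was 11.9-fold and 18.2-fold lower in CD166 and LGR5 cells (log2 -3.57 ± 0.34 and -4.18 ± 0.36). Mme was 14-fold and 18.1-fold lower (log2 -3.81 ± 0.70 and -4.18 ± 0.72), or 7.38-fold and 9.52-fold without ileum crypt 3. Enpep was 9.80-fold and 13.5-fold lower (log2 -3.29 ± 0.23 and -3.76 ± 0.24). Naaladl1 was 6.69-fold and 6.18-fold lower (log2 -2.74 ± 0.38 and -2.63 ± 0.38). Dpp4 had the smallest fall, 2.14-fold and 2.61-fold (log2 -1.10 ± 0.18 and -1.38 ± 0.18). The edgeR adjusted p of these 6 genes ran from 7.10e-06 (Enpep, LGR5) to 0.00254 (Mme, CD166).

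The share of the mean crypt level found in sorted cells differed widely between the genes. Dpp4 kept 39.6% and 34.9% in ileal CD166 and LGR5 cells, and 55.2% and 42.2% in jejunal ones. Lct kept 0.856% and 0.446% in ileal cells and 3.38% and 3.49% in jejunal ones. The ileal shares of Lct rested on ileum crypt 3: without it they were 5.23% and 2.72%, so that in CD166 cells the ileal share was above the jejunal one. The ileal shares in CD166 and LGR5 cells were 3.05% and 1.46% for Treh, 3.58% and 2.26% for Mme and 3.98% and 5.57% for Ace, or 7.79% and 3.73%, 13.0% and 8.16%, and 9.99% and 14% without that library. Naaladl1 kept 28.7% and 27.0% in the ileum but 7.79% and 9.70% in the jejunum, a difference between regions that did not pass the interaction test above. Enterocyte markers fell with the enzymes, with 11 of 12 called in CD166 cells and 12 of 12 in LGR5 cells, with median log2 differences of -3.37 and -3.69. Lymphocyte markers were at 5.23 to 58.6 CPM in sorted cells and 170 to 10953 CPM in crypt cells, and 7 of 10 were called lower in each sorted population. Their part in the falls was not tested.

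**Figure D4:**
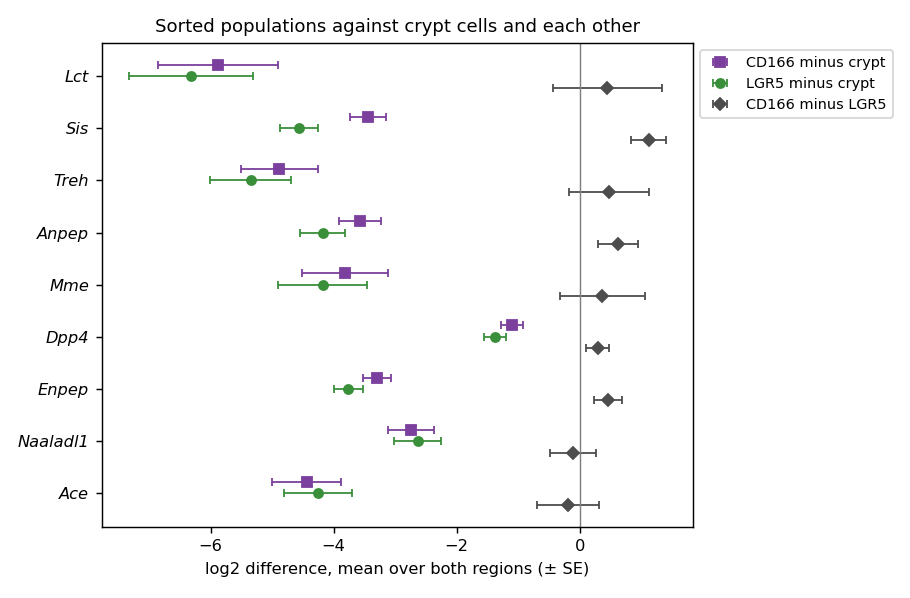
Log2 difference (± SE, edgeR, mean over both regions) of each enzyme gene for CD166 minus crypt, LGR5 minus crypt and CD166 minus LGR5. All 9 genes lie below 0 against crypt cells, from -1.10 for Dpp4 in CD166 cells to -6.32 for Lct in LGR5 cells, and lie between -0.19 and 1.12 for CD166 minus LGR5.

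Between the sorted populations 0 of 9 enzymes were called, against 1.61% of all genes (1363 genes had an unadjusted p under 0.05). The median log2 difference of the enzymes, CD166 minus LGR5, was 0.45, against 0.00 over all genes, and 7 of 9 were above 0. Sis came nearest to a call, 2.17-fold higher in CD166 cells (log2 1.12 ± 0.28, edgeR adjusted p = 0.0903). Its CD166 level was above its LGR5 level in each region, at 103 and 114 against 57.6 and 65.9 CPM in the ileum and at 303 and 379 against 141 and 113 CPM in the jejunum. Markers of other cell types differed between these populations: the Paneth cell sum was 32463 to 52801 CPM in CD166 cells, against 5058 to 9024 CPM in LGR5 cells, with 4 of 7 markers called higher in CD166 cells. The enteroendocrine sum was 848 to 3803 CPM in CD166 cells, against 228 to 590 CPM in LGR5 cells, with 7 of 9 called higher. Enterocyte markers summed to 2059 to 3397 CPM in CD166 cells, against 1502 to 2578 CPM in LGR5 cells, with 0 of 12 called. The part of these markers in the Sis difference was not tested. Sis was called by DESeq2 (adjusted p = 0.00338), by limma-voom (adjusted p = 0.0188) and, without ileum crypt 3, by edgeR (adjusted p = 0.0120), which then called 1.69% of all genes.

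Levels of different genes were compared per kilobase, as CPM divided by the length of the longest protein-coding transcript. Anpep was the highest of the 9 in ileal crypt cells, at 732 CPM per kilobase, and in jejunal crypt cells, at 938. Anpep also led in jejunal CD166 and LGR5 cells, at 112 and 78.6 CPM per kilobase. Naaladl1 led in ileal CD166 and LGR5 cells, at 119 and 112 CPM per kilobase, where Anpep followed at 43.6 and 26.4 and the library ranges did not overlap. In jejunal CD166 and LGR5 cells Naaladl1 was below Anpep, Sis and Dpp4, at 10.8 and 13.4 CPM per kilobase. Lct stood at the bottom or next to it in all 4 sorted groups, from 0.334 to 6.00 CPM per kilobase. In ileal crypt cells the order behind Anpep was Naaladl1, Sis, Enpep, Ace, Lct, Dpp4, Treh and Mme, and each gene's library range overlapped that of the next. Ileum crypt 3 set the places of Ace and Lct: without it Dpp4, at 58.6 CPM per kilobase, was above Ace (33.7), Treh (17.1), Lct (12.3) and Mme (4.94), and Anpep (548) and Naaladl1 (497) still led. In jejunal crypt cells Sis followed Anpep at 460 CPM per kilobase, above and apart from Lct, Ace, Treh, Enpep and Naaladl1 (138 to 172), whose ranges overlapped. In each sorted group Dpp4 was among the highest 3.

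Other brush border hydrolases were split as well. Of 17 tested (19 were in the files), 4 rose and 2 fell in the ileum over all populations, with a median log2 difference of 0.04. Plb1, a phospholipase, was higher by log2 3.12 ± 0.77 (edgeR adjusted p = 0.0425), and Mep1a, a subunit of the protease meprin, by 1.31 ± 0.29 (0.0252). Mgam, the gene of maltase-glucoamylase, was higher by 0.94 ± 0.15 (0.00765), unlike the disaccharidase genes Lct, Sis and Treh. Its fitted log2 difference was 1.06 in CD166 cells, 1.63 in LGR5 cells and 0.14 in crypt cells. Akp3 and Alpi, intestinal alkaline phosphatases, were lower by log2 -6.10 ± 1.13 (0.0138) and -2.85 ± 0.39 (0.00492). Akp3 had 5.51 CPM in jejunum crypt 1 and 4.69 CPM in ileum crypt 3, against 1851 and 371 CPM in jejunum crypt 2 and 3. The reason was not tested. The genes of the alkaline phosphatase family share sequence, so their values are less certain. Alpi is also on the list of enterocyte markers, as is the microvillus gene Vil1. Of 15 genes for the uptake of sugars, peptides and amino acids 0 rose and 3 fell, with a median of -0.56. The basolateral glucose transporter gene Slc2a2 fell by 2.76 ± 0.66 (0.0359) and Slc3a1, part of a cystine and basic amino acid transporter, fell by 1.21 ± 0.14 (0.00276). Of 18 genes of microvillus structure 1 rose, Tmigd1, by log2 5.07 ± 0.88 (0.0113), and 0 fell. These are values on the log2 scale.

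Against crypt cells these groups fell widely. Of the 17 hydrolase genes 14 fell and 0 rose in CD166 cells, and 15 fell and 1 rose in LGR5 cells. Enpp7, a sphingomyelinase, was lower by log2 -6.65 ± 0.79 in CD166 cells and -6.40 ± 0.79 in LGR5 cells (edgeR adjusted p = 0.000215 and 0.000253). Carboxypeptidase M (gene Cpm) was the 1 that rose, in LGR5 cells (log2 1.25 ± 0.21, adjusted p = 0.00174). Of 15 uptake genes 14 fell in each sorted population. Of 18 microvillus genes 15 fell in CD166 cells and 13 in LGR5 cells, with median log2 differences of -1.55 and -1.69, smaller than those of the enzymes. Of all these genes 1 was called between CD166 and LGR5 cells: Slc6a19, a neutral amino acid transporter, higher by log2 3.09 ± 0.48 in CD166 cells (adjusted p = 0.00738).

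Among 20 genes for transcription factors of the gut 3 fell in the ileum and 0 rose. Gata4 had 11.8 and 11.5 CPM in ileal CD166 cells and 8.02 and 17.5 CPM in ileal LGR5 cells, against 225 and 177 and 168 and 188 CPM in the jejunal ones. In crypt cells Gata4 had 28.0, 45.4 and 233 CPM in the ileum, against 229, 88.2 and 324 CPM in the jejunum. Its level in ileum crypt 3 was thus in the jejunal crypt range, as were those of Sis, Treh, Anpep, Mme and Dpp4 there. The levels of Lct, Ace, Enpep and Naaladl1 in that library were above the jejunal crypt range. Gata4 fell by 2.99 ± 0.50 on the log2 scale (edgeR adjusted p = 0.00962), Pdx1 fell by 5.17 ± 0.82 (0.00780) and Onecut2 fell by 5.08 ± 0.83 (0.00909). Against crypt cells 3 of the 20 rose in each sorted population, among them Foxa3 (log2 0.94 ± 0.29 in CD166 cells and 1.22 ± 0.29 in LGR5 cells). Another 3 fell in CD166 cells and 4 in LGR5 cells. Of all genes 13.6% rose and 16.5% fell in CD166 cells, and 13% rose and 18.5% fell in LGR5 cells, so these counts were near the share of all genes.

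The likeness of 2 genes was taken as the root mean square difference of their log2 CPM profiles over the 14 libraries, each centred on its own mean, among 9896 genes. A smaller value is a closer match, and the libraries share their depth and cell makeup. Profiles were not scaled, so the value also depends on how much each gene varies, and values of different genes are not directly comparable. Nearest to Lct was Treh (0.70), then Apoc3 (0.75) and Cyp2b10 (0.79). Nearest to Treh were Cyp3a25 (0.46), Slc5a4b (0.50) and Apoc3 (0.53). Sis lay nearest to Gm7092 (0.33), Mogat2 (0.35) and 2010110P09Rik (0.39), and Anpep to Npc1l1 (0.34), Mogat2 (0.40) and Slc26a6 (0.43). Mme lay nearest to Arg2 (0.42), Ugt2a3 (0.49) and Adh6a (0.55), Dpp4 to Slc9a2 (0.20), Nr1h3 (0.20) and Sesn1 (0.24), and Enpep to Apol10a (0.38), Sult2b1 (0.39) and Cyp4f14 (0.39). Ace lay nearest to Asah2 (0.50), Gpt (0.56) and Dnase1 (0.57). Naaladl1 had the most distant neighbours, Bcl2l15 (0.78), Rdh9 (0.91) and Mep1a (0.93). Among the enzymes themselves Sis and Anpep were the closest pair (0.51), and Lct and Naaladl1 the most distant (3.44). The Cyp genes belong to a large gene family in which reads can be split between near copies, so their values are uncertain.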

How the data were processed

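The authors deposited 2 files per library: expected counts per gene, not scaled between libraries, and log2 values made from them. The files of expected counts are named for RPKM, but 50.6% of deposited values above 0 were whole numbers (within 0.001). After 1 constant per library and 1 per gene, the deposited log2 values differed from the log2 of the counts by at most 1.4e-06. That was computed over the 8826 genes with over 50 counts in every library. A constant per gene would absorb a scaling by gene length, so such a scaling of the log2 values cannot be seen this way. Build mm9 and DESeq appear in the submitters' processing notes, without a step or version. How reads were aligned and counted, by strand or not, is not given in the sources used here. Per the labels' protocols, reads were single-end, of 50 bases, from TruSeq kits.

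Expected counts were rounded and filtered with filterByExpr (minimum count 10, minimum total 15) in edgeR 4.0.16 (R 4.3.3), which kept 14750 genes. One quasi-likelihood model with TMM scaling gave each of the 6 groups its own mean. The SE is the log2 difference divided by the square root of F. DESeq2 1.42.0 and limma 3.58.1 served as other tests. The 9 genes, the other gene lists and the tests were chosen with earlier results of these data known. All 9 genes were named in each comparison, and from each other list up to 4 called genes with the largest differences. Mgam was named besides them, after its values were seen. Genes of the region and sort checks besides Fabp6, Gata4 and Lgr5 were also chosen after their values were seen. Alternatives were other scaling, filters and tests, a fit of only the groups compared, replicate numbers as a block, and each library left out in turn. Leaving out pairs of libraries, limma on the deposited log2 values and crossed replicate numbers were added after seeing the data. The calculation was tested on simulated data. The number of libraries, 2 or 3 per group, and their depth both limit the precision.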

Additional observations from a re-analysis of the deposited data

How the results depend on the processing

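Against crypt cells, all 9 enzymes were called lower in CD166 and in LGR5 cells under all 11 alternatives (scaling, filters, tests, compared groups alone, replicate block, pairs of libraries left out, deposited log2 values) and in all 14 fits without 1 library (9 to 9 members). Over all populations the regional count of 6 ran from 4 to 8 under 10 alternatives. Leaving out 1 library gave 1 to 7: the count was 1 when ileum CD166 2 or ileum LGR5 2 was left out, and 2 when ileum CD166 1, jejunum CD166 2 or either jejunum LGR5 library was. Naaladl1 was called in each of them.

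Within populations the counts of enzymes called depended on the setting. In crypt cells (0) DESeq2 gave 1, and leaving out 1 library 0 to 6. In LGR5 cells (1) DESeq2 gave 5, the compared groups alone 7, and leaving out 1 library 0 to 4. In CD166 cells (0) DESeq2 gave 3, limma-voom 1, the compared groups alone 5, limma on deposited log2 values 1, and leaving out 1 library 0 to 3. For CD166 minus LGR5 (0) DESeq2, limma-voom and the compared groups alone gave 1 each, and leaving out 1 library 0 to 1. The interaction stayed at 0 throughout (0 to 0). Left out in pairs, ileum crypt 3 and jejunum crypt 2 gave 7, 6, 4 and 1 for crypt, LGR5, CD166 and CD166 minus LGR5, ileum crypt 3 and jejunum crypt 1 gave 6, 4, 3 and 1, and ileum crypt 1 and jejunum crypt 2 gave 0, 2, 1 and 1. With a replicate block the regional difference over all populations kept 6 calls, that in LGR5 cells fell to 0 (Naaladl1 adjusted p = 0.0757), and CD166 minus LGR5 gave 1. With the LGR5 numbers crossed the LGR5 count was 0. No label says that a replicate number marks a shared source. Same-numbered crypt libraries of the 2 regions deviated together with r of -0.32, -0.44 and 0.44. Other same-numbered pairs, where 2 libraries a group give 1 value for both, had r from -0.15 (LGR5 between regions) through 0.24 (ileal CD166 and LGR5) to 0.60 (jejunal CD166 and crypt), so the numbers were not taken to pair samples.

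Signs reversed only near 0. Enpep in crypt cells ran from -0.03 (without jejunum crypt 2; -0.02 without ileum crypt 3) to 0.28 over the fits without 1 library, and was -0.15 without both of these and -0.08 without ileum crypt 1 and jejunum crypt 2. Enpep in CD166 cells ran from -0.24 (without ileum CD166 1 or jejunum CD166 1) to 0.40, and Dpp4 in crypt cells from -0.34 to 0.05 (without ileum crypt 2). For CD166 minus LGR5, Naaladl1 ran from -0.26 to 0.07 (without ileum LGR5 1), Ace from -0.50 to 0.00 (without jejunum CD166 1) and Lct from -0.03 (without jejunum CD166 2) to 0.86. The cause was not tested. Counts over all genes moved as well: from 739 to between 426 and 2090 over all populations, from 103 to between 0 and 1574 in LGR5 cells, from 3 to between 0 and 571 in CD166 cells, from 0 to up to 1036 in crypt cells, from 2 to between 0 and 70 for the interaction and from 238 to between 215 and 575 for CD166 minus LGR5. Lct and Treh in ileal sorted cells, at 0.861 to 4.02 CPM, rest on few counts.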
